A study of Rattus norvegicus with 2 samples.

Results

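The Hippo pathway genes and TEAD targets described here are 10 genes: the coactivator genes Yap1 and Wwtr1 (which encodes TAZ), the transcription factor genes Tead1, Tead3 and Tead4, the TEAD cofactor gene Vgll4, the kinase genes Lats1 and Lats2, and the target genes Ccn1 (Cyr61) and Ccn2 (Ctgf). Their peaks were all those, of any class, that the deposited annotation assigned to 1 of these names. The 10 genes had 51 of the 28706 peaks of the list (0.178%), and 8 of the 10 had at least 1. No peak carried the name Tead3 or Lats2.

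The peaks came from 1 chromatin immunoprecipitation sequencing (ChIP-seq) library. Its chromatin was myocardial and came from Wistar rats, all male, after abdominal aortic constriction. In that model a ligature closed around the suprarenal aorta and a 0.7 mm wire narrows the vessel, so that the heart pumps against a higher pressure. The labels name the antibody by catalogue number, and its target was taken here to be lactylated lysine 18 of histone H3 (H3K18la), the mark in the series title. An input library of the same model had no values here and no library of another group was analysed, so there was no replicate, no comparison between groups and no test. Sequencing depth is unknown, so a gene without a peak had no call at this depth and threshold. The age of the rats, the number that gave the chromatin and any vagal stimulation are not given in the sources used here.

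In Hippo signalling, a kinase cascade ends in the LATS kinases, which phosphorylate YAP and TAZ and hold them in the cytoplasm. Unphosphorylated YAP and TAZ enter the nucleus and bind TEAD factors, which recognise a DNA motif known in muscle genes as the MCAT element. Their targets include the matrix-associated secreted proteins CCN1 and CCN2, while VGLL4 competes with YAP and TAZ for TEAD. In the heart the pathway is known for restraining cardiomyocyte growth and division. H3K18la is a lactate-derived histone mark known from active promoters and enhancers.

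At least 1 peak stood at 8 of 10 members (80%, 95% Clopper-Pearson interval 44.4 to 97.5%), and at 27.1% of the 23154 protein-coding genes of a RefSeq gene table. A peak centre lay within 1000 bp of the transcription start site (TSS) at 6 members, Yap1, Wwtr1, Tead1, Vgll4, Lats1 and Ccn1, and at 17.1% of background genes. Widening that window to 3000 bp added Ccn2 (7 members, 18.8% of background genes) and to 10000 bp Tead4 (8 members, 21.5%). A peak of HOMER's promoter-TSS class stood at 3 members, Wwtr1, Tead1 and Vgll4, and at 9.87% of background genes. A peak reached across the TSS itself at 4 members, Wwtr1, Tead1, Lats1 and Ccn1, and at 6.72% of background genes. All 8 members with a peak had one at −log10 q of at least 5, as did 14.4% of background genes. This background took in silent as well as active genes. Its share with a peak also moved with gene length, from 14.6% of genes under 10 kb to 40.7% of genes of 50 kb or more, and 6 of the 10 members were in that longer class. The part of length in the members' share was not tested.

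The 51 member peaks had values near those of peaks in general. Fold enrichment, the authors' ratio of a peak to the caller's local background, had a median of 4.30 (quartiles 3.69 and 4.88) at members and 4.13 (3.62 and 4.79) over all peaks. The median −log10 q was 4.05 at members and 3.89 over all peaks, and the median width was 386 bp against 375 bp. Of the member peaks, 24 (47.1%) were intergenic, 21 (41.2%) intronic, 4 of promoter-TSS class and 2 exonic. Tead4 gave 11 of the intergenic peaks and Ccn2 9, and Vgll4 gave 12 of the intronic ones. Peaks of 1 gene are not independent, and few genes set these shares. Over all peaks 41.1% were intergenic and 43.8% intronic.

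The 8 member peaks with a centre within 1000 bp of the TSS had a median fold enrichment of 4.96 and a median width of 843 bp, and the other 43 had 4.11 and 324 bp. The 2 sets overlapped: the 8 ran from 3.24-fold to 6.59-fold and from 200 to 2417 bp, which takes in both medians of the other 43. In the whole list the 5569 peaks within 1000 bp had medians of 4.14 and 411 bp, and the 23110 farther ones 4.13 and 368 bp. The 3 member peaks of fold enrichment of at least 6, at Ccn1, Tead1 and Wwtr1, all lay across the TSS. By peak, that strength was reached by 5.88% of member peaks and 6.31% of all peaks, so the member share was near that of the list. By gene, a peak of that strength, at any distance, was found at 3 of the 10 members and at 4.17% of background genes.

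**Figure D1:**
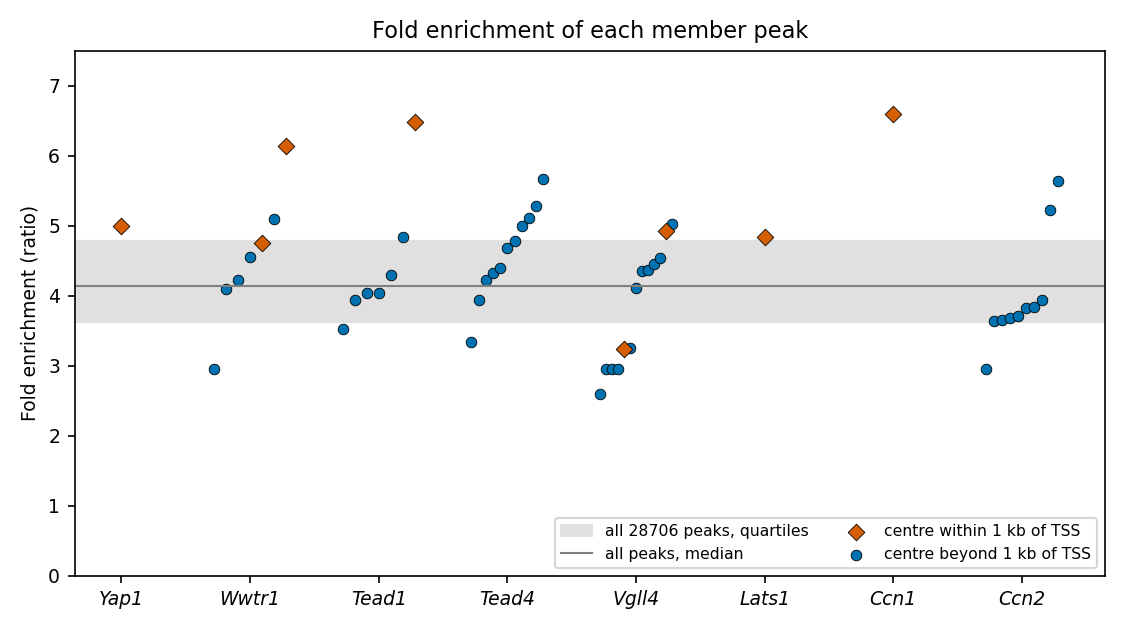
Fold enrichment (y axis, ratio) of each peak of the 8 members that had one, sorted within a gene; diamonds are peaks with a centre within 1 kb of the TSS and circles those beyond. The grey band and line are the quartiles and median of all 28706 peaks, and 1 diamond each of Ccn1, Tead1 and Wwtr1 lies above 6.

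The members fell into 3 with a single peak beside the TSS (Yap1, Lats1 and Ccn1) and 5 with 7 to 13 peaks (Wwtr1, Tead1, Ccn2, Tead4 and Vgll4). In the list as a whole, 45.0% of the 8094 gene names had 1 peak and 12.8% had 7 or more. Of the 5, Tead4, Vgll4, Wwtr1 and Tead1 are long RefSeq genes, of 78.2 to 218 kb, against a median of 15.5 kb, while Ccn2 spans 3.12 kb. Of the members with 1 peak, Yap1 spans 71.1 kb, Lats1 33.2 kb and Ccn1 2.96 kb. Lats2 and Tead3, without a peak, span 51.6 and 19.4 kb. The part of gene length in the number of peaks was not tested. The distances of the member peaks differed from gene to gene, from the TSS itself at Wwtr1 to beyond 100 kb at Ccn2.

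**Figure D2:**
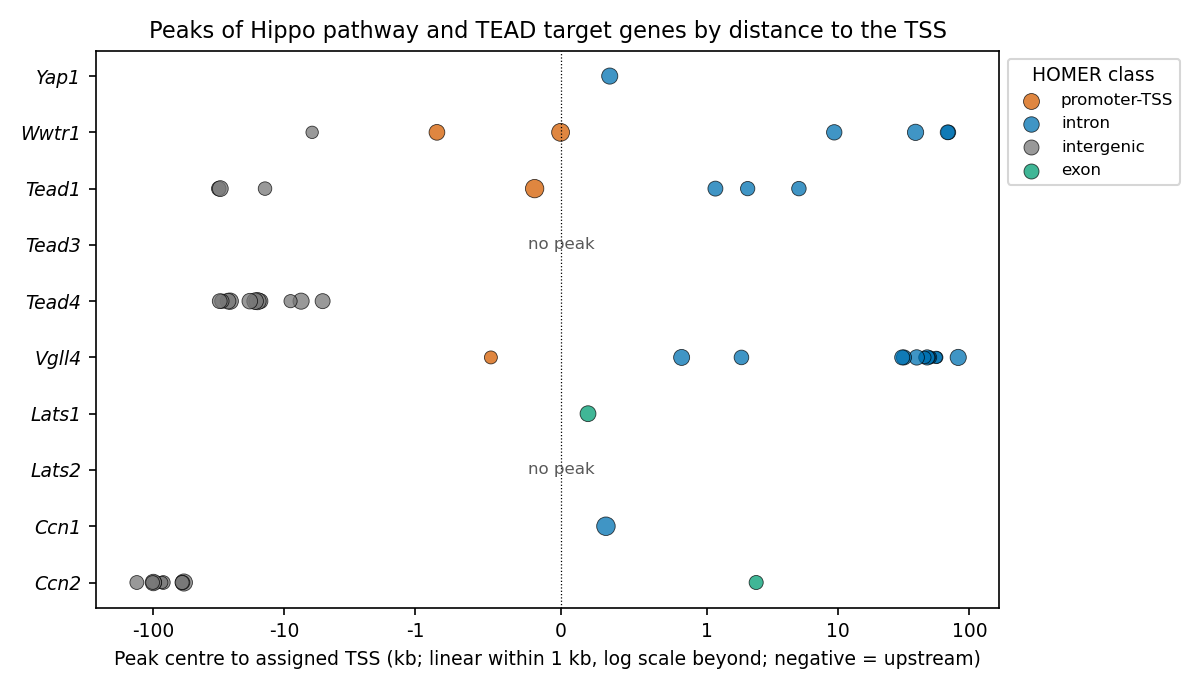
Distance from the centre of each member peak to its assigned TSS (x axis, kb, linear within 1 kb and logarithmic beyond, negative upstream) for the 10 members; colour is the HOMER class and point area grows with fold enrichment. Tead4 has 11 points, all upstream, Ccn2 has 9 points farther than 50 kb upstream, and Tead3 and Lats2 have none.

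The coactivator genes both had a peak close to the start site, and at Wwtr1 there were further peaks along the gene. Yap1 encodes the main effector of the pathway, and Wwtr1 its close relative TAZ. The Yap1 peak had 5.0-fold enrichment and a −log10 q of 7.09 (chromosome 8, 6202952 to 6203413, rn6, 462 bp). It lay in intron 1, from 102 to 563 bp downstream of the TSS, and so did not reach the TSS. Among the 3644 names with 1 peak, whose median fold enrichment was 4.07, 83.0% had a lower value than Yap1. The nearest peak of another name lay 127 kb away and belonged to Birc3, an inhibitor of apoptosis gene that neighbours Yap1.

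Wwtr1 had 7 peaks spread over 75.5 kb. The strongest had 6.14-fold enrichment and a −log10 q of 10.8 (chromosome 2, 147692501 to 147693672). It was also the widest, at 1172 bp, and was centred 4 bp upstream of the TSS, with edges 590 bp before and 581 bp after it. A second promoter peak of 200 bp and 4.76-fold enrichment stood 162 bp from it, centred 852 bp upstream. In intron 2 were 4 peaks of 4.09-fold to 5.09-fold enrichment, 9.32, 38.8, 68.2 and 69.1 kb downstream of the TSS. The last was a weak intergenic peak of 2.96-fold 6.12 kb upstream. A further peak of 4.74-fold lay in intron 4 of the Wwtr1 transcript (chromosome 2, 147592211 to 147592598), 101 kb from its start, and was assigned to Tm4sf4, whose TSS is nearer.

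The RefSeq promoters of both coactivator genes, from 250 bases before to 50 bases after the start on GRCr8, are shown for the MCAT motif that TEAD factors bind. Capitals mark matches to the MCAT core (CATTCC, or GGAATG on the other strand).
Yap1 (chr8:13451388-13451687, minus strand): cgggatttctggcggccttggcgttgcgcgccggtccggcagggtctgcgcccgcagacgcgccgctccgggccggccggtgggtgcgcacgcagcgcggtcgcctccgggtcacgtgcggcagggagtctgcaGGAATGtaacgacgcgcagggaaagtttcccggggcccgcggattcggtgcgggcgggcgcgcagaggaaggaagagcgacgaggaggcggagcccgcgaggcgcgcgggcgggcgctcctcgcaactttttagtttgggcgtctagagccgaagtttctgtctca
Wwtr1 (chr2:143916892-143917191, minus strand): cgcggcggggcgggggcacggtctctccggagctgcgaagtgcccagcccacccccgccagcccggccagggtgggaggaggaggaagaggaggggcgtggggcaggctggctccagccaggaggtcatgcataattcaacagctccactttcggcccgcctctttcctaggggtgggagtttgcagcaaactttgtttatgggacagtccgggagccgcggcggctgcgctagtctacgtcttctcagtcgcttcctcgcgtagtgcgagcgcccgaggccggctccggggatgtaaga
Yap1 had 1 match, which begins 116 bases upstream of the start, and Wwtr1 had none. Of all 33469 promoters of that table, 14.2% held at least 1 match. Yap1 had 47 CpG dinucleotides in this window and Wwtr1 26, against a median of 7 over all promoters. The peaks are placed on rn6 and by Ensembl starts, and the 2 builds were not aligned.

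Of the TEAD genes, Tead1 and Tead4 had 18 peaks between them, placed differently, and Tead3 had none. Tead1 encodes the TEAD best known from heart muscle. Its strongest peak had 6.48-fold enrichment and a −log10 q of 9.95 (chromosome 1, 177494798 to 177496403). It spanned 1606 bp, of which 985 bp lay before the TSS and 620 bp after it, and 96.0% of all peaks had a lower fold enrichment. A second peak of 4.30-fold followed 236 bp away in intron 1. Upstream were 3 intergenic peaks, 14.0, 30.6 and 31.5 kb from the TSS, with 3.53-fold, 4.84-fold and 4.04-fold enrichment.

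The remaining Tead1 peaks were assigned to a second Tead1 start site, ENSRNOT00000090042, which lies 73.8 kb downstream of the first. They stood 2.04 kb and 5.02 kb beyond that start, in intron 1 of its transcript, with 3.94-fold and 4.03-fold enrichment. Intron 1 of the longer Tead1 transcript held 2 more peaks, of 4.68-fold and 4.04-fold, 36.3 and 36.8 kb from its start. These were assigned to the unnamed model AABR07005040.2.

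Tead4, another MCAT-binding factor, had no peak near its annotated start and 11 peaks upstream of it, all classed as intergenic. They lay from 5.09 to 31.0 kb upstream and within 26.9 kb of each other, and peaks covered 23.8% of that stretch. Fold enrichment ran from 3.35 to 5.66 with a median of 4.68. The strongest, of 5.66-fold and 200 bp, lay 15.9 kb upstream (chromosome 4, 161603054 to 161603253). The widest, of 1661 bp and 4.32-fold, was the one nearest to the TSS (161591481 to 161593141). Neighbouring Tead4 peaks were separated by a median of 1.11 kb, and neighbouring peaks of the same member, taken over all members, by 1.75 kb. The median of 4.64 kb over the whole list also counts gaps between peaks of different genes, so it is not a like measure.

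The 11 peaks formed 3 runs, 5.09 to 8.93 kb, 15.2 to 18.3 kb and 25.7 to 31.0 kb upstream, divided by gaps of 5.98 and 6.76 kb. At −log10 q of at least 5, Tead4 kept 7 of them. By number of peaks Tead4 was above 93.8% of names, while its strongest fold enrichment was above that of 35.8% of the 67 names with 11 peaks. The RefSeq gene spans 78.2 kb on GRCr8, and whether the peaks lie upstream of that longer model or inside it was not tested. RefSeq also lists a gene named Tead4l1 beside Tead4, and 0 peaks carried that name.

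No peak was named Tead3. In the RefSeq gene order its immediate neighbours Rpl10a and Tulp1 had none either. Next to them are Fance, with 2 peaks, and Fkbp5, a glucocorticoid-induced co-chaperone gene with 9 peaks of up to 5.92-fold enrichment. In rn6 no peak of any name lay in the 99.4 kb between the peaks of those genes.

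Vgll4, which encodes a TEAD cofactor that displaces YAP and TAZ, had the most peaks of any member, 13, over 83.1 kb. They covered 9099 bp, more than in 97.1% of names. Fold enrichment ran from 2.59 to 5.03 with a median of 4.11, near the 4.13 of all peaks. Its maximum was above that of 7.41% of the 54 names with 13 peaks. Of the 13, 7 reached a fold enrichment of 4, and 4 a −log10 q of 5. Of all 28706 peaks, 15939 reached that fold enrichment and 9179 that −log10 q, which are similar shares. Peaks were called on both sides of the annotated start and none over it. A promoter peak of 3.24-fold ended 321 bp upstream, and a peak of 4.92-fold and 1372 bp began 140 bp downstream (chromosome 4, 146837886 to 146839257).

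The widest Vgll4 peak, of 2676 bp, lay in intron 2, 47.6 kb downstream of the TSS (chromosome 4, 146790510 to 146793185). Its fold enrichment of 4.46 was above 63.7% of all peaks, while its −log10 q of 8.49, the highest of the gene, was above 92.1%. Including it, intron 2 held 7 peaks, from 39.6 to 56.7 kb downstream, with a median of 2.96-fold. Intron 1 held 4 peaks, 0.826, 1.83, 30.7 and 31.7 kb downstream.

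The strongest peak under the name Vgll4, of 5.03-fold, was not placed in a Vgll4 transcript by the annotation. It was classed to intron 17 of 17 of a transcript of Atg7, an enzyme gene of autophagosome formation (chromosome 4, 146756944 to 146757687). The Vgll4 start, 82.1 kb away, was its nearest TSS. The next peak on that side lay 186 kb farther and was assigned to Atg7 by name. The RefSeq Vgll4 gene spans 113 kb on GRCr8, and whether that model takes in the 5.03-fold peak was not tested.

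RefSeq gives Vgll4 3 starts on GRCr8, the second 972 bp and the third 50.6 kb downstream of the first. The promoter of the second is shown because it alone of the 3 held MCAT core matches, in capitals.
Vgll4 second start (chr4:149710165-149710464, minus strand): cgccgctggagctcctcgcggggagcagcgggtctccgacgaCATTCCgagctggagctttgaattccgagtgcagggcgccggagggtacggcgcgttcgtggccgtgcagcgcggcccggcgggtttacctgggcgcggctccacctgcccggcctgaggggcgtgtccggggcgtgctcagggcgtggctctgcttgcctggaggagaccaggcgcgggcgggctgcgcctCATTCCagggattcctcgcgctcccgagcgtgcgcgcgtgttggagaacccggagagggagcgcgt
The 2 matches begin 208 and 16 bases upstream of that start. Of all promoters 1.24% held 2 or more, but that share is per promoter, and this one was picked from 3 for its matches. The second start had 41 CpG dinucleotides, the first 15 and the third 6. Which of these starts corresponds to the annotated rn6 start, and whether the intron 2 peaks lie at the third, was not tested.

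**Figure D3:**
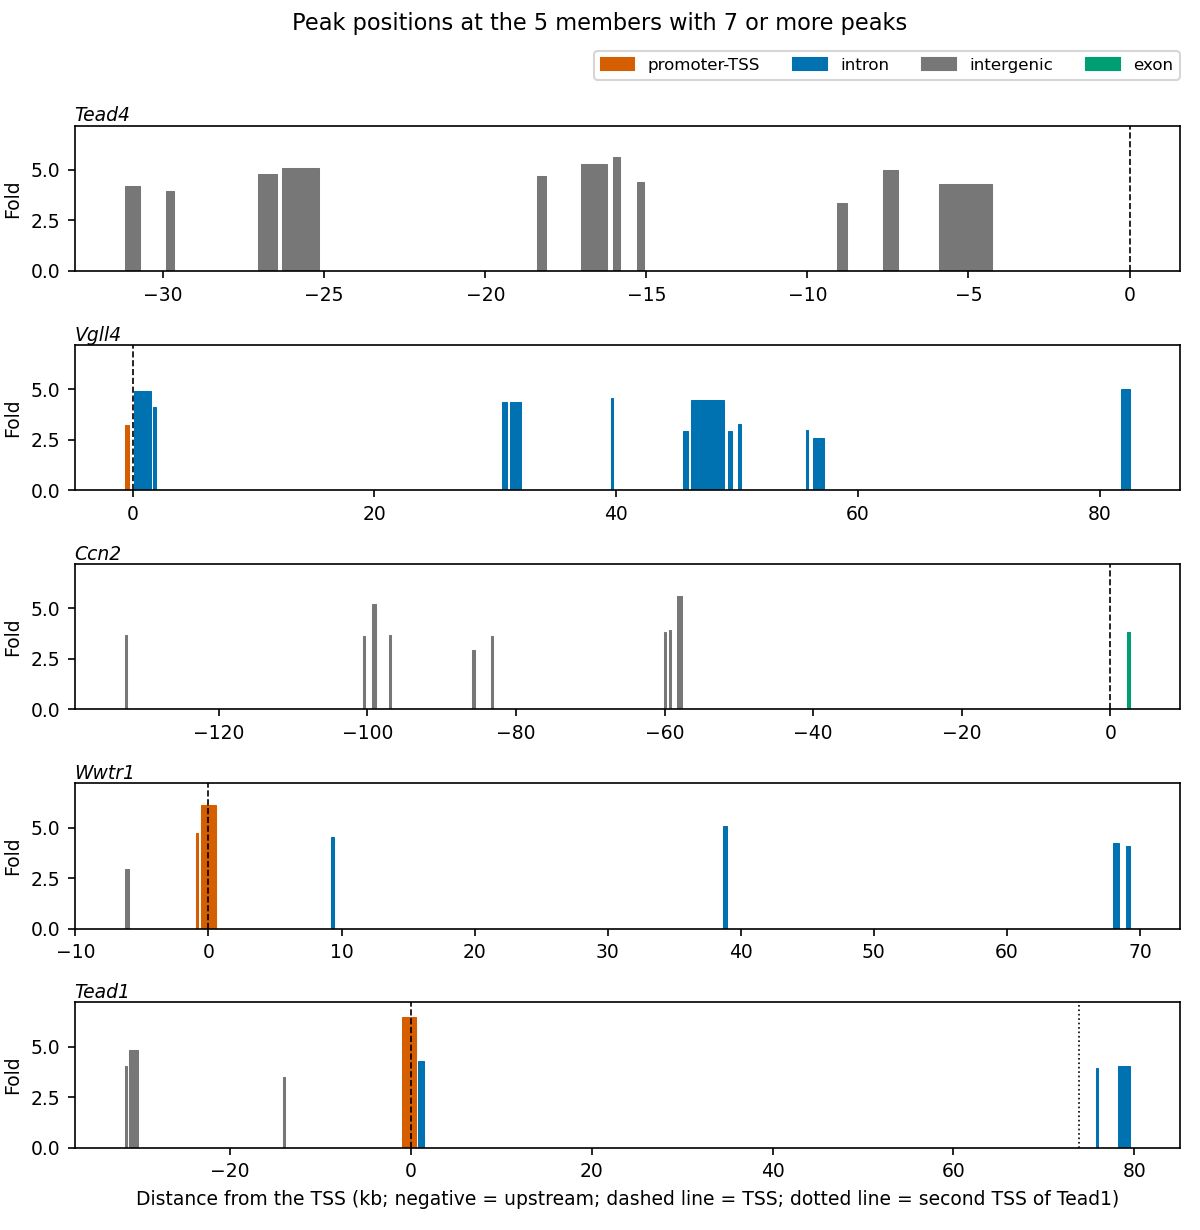
Peaks of the 5 members with 7 or more peaks, drawn at their distance from the TSS (x axis, kb, negative upstream; scales differ between panels) with bar width the peak width and bar height the fold enrichment (y axis, ratio); colour is the HOMER class. Tead4 and Ccn2 have no bar over the dashed TSS line, and Wwtr1 and Tead1 have their highest bar there.

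The LATS kinase genes had 1 peak in all. Lats1, which phosphorylates YAP and TAZ, had a peak of 4.84-fold enrichment and a −log10 q of 5.69 (chromosome 1, 1784006 to 1784519). It spanned 514 bp of exon 1 and the TSS, with edges 73 bp before and 440 bp after it. Of the names with 1 peak, 79.1% had a lower fold enrichment.

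Lats2, its paralogue and itself a YAP and TAZ target, had no peak by name, nor had its RefSeq neighbours Xpo4 and Sap18. In the 295 kb of rn6 between the peaks of the nearest neighbours that had any, Il17d and Mrpl57, stood 3 peaks assigned to the model LOC108352928 (chromosome 15, 37993390 to 37996162). They had 4.44-fold to 5.35-fold enrichment and were of intergenic, promoter and intron class. Whether they lie beside or within Lats2 was not tested.

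The target genes Ccn1 and Ccn2, which encode related matricellular proteins, had different layouts. Ccn1 had the strongest peak of all members, of 6.59-fold enrichment and a −log10 q of 12.4 (chromosome 2, 251530797 to 251533213). It was a single peak of 2417 bp whose edges lay 901 bp before and 1515 bp after the TSS, and the RefSeq gene is 2.96 kb long on GRCr8. Of the 3644 names with 1 peak, 97.5% had a lower fold enrichment and 99.8% a narrower peak. The next peak, of 3.05-fold, stood 0.233 kb away and was assigned to the promoter of the unnamed model AABR07013701.1.

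Ccn2 had 10 peaks and none over its start. The peak nearest to the TSS, of 3.82-fold, lay in exon 5 of 5, 2.37 kb downstream of the start of ENSRNOT00000089196 (chromosome 1, 21852201 to 21852586). The other 9 were intergenic and lay 58.0 to 132 kb upstream. No called Ccn2 peak lay in the 59.9 kb between them. The strongest, of 5.63-fold and 679 bp, was the nearest of the 9 (21912471 to 21913149). The next, of 5.23-fold and 645 bp, lay 99.1 kb upstream (21953561 to 21954205).

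The other 7 distant Ccn2 peaks had 2.95-fold to 3.94-fold enrichment, below the list's median of 4.13. At fold enrichment of at least 4, as at −log10 q of at least 5, 2 of the 10 peaks were left. They are assigned to Ccn2 because its start is the nearest, and whether they act on it was not measured. Beyond them the next peak of another assignment was 898 kb away.

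The RefSeq promoters of both targets are shown because the Ccn1 peak covered the whole window of 250 bp before and 50 bp after its annotated start, and no Ccn2 peak touched it. Capitals mark the MCAT core (CATTCC or GGAATG) and the TATA box (TATAAA, searched on the gene's strand).
Ccn1 (chr2:237225640-237225939, minus strand): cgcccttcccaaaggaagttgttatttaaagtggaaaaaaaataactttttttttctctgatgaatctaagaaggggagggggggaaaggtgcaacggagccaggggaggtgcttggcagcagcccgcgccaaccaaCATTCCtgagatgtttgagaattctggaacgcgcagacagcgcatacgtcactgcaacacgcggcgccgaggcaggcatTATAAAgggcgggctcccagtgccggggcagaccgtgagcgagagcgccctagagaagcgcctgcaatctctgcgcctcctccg
Ccn2 (chr1:22624565-22624864, minus strand): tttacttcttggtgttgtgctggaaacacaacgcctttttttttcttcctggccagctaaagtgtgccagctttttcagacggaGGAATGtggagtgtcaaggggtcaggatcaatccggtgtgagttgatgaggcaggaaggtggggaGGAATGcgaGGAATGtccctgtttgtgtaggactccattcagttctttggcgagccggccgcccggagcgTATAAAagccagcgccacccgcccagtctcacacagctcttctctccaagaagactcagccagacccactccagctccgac
Ccn2 had 3 MCAT core matches, which begin 166, 101 and 92 bases upstream of the start, and 0.0956% of all promoters held 3 or more. Ccn1 had 1 match, 113 bases upstream. TATAAA begins 34 bases upstream at Ccn1 and 31 bases upstream at Ccn2, and 8.80% of all promoters held it. Neither had a match to the AP-1 motif TGANTCA, which 7.33% of promoters held, nor to the CArG box of serum response factor, which 1.64% held. None of the 7 other member promoters in the table held TATAAA. Ccn1 had 20 CpG dinucleotides and Ccn2 12, the Lats1 promoter 36 and that of Tead3, a member without a peak, 28.

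Of the 28 other pathway genes listed, 17 had at least 1 peak (60.7%, 40.6 to 78.5%), 12 had a centre within 1000 bp of the TSS and 8 a promoter-class peak. The shares of background genes were 27.1%, 17.1% and 9.87%. The highest fold enrichment stood at Rassf1, a scaffold that binds the Hippo kinases, with 7.73 and a −log10 q of 16.7 in an exon, 150 bp downstream of the TSS (chromosome 8, 116310861 to 116311596). Wwc2, a member of the KIBRA family that activates LATS, followed with a promoter peak of 6.12-fold, 727 bp upstream of the TSS. Ptpn14, a phosphatase that binds YAP, had 5.92-fold 12.8 kb upstream, and the protocadherin gene Fat4 5.59-fold in an intron 66.5 kb downstream.

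Within that list, the core kinases and scaffolds had a peak at 7 of 9 genes, and the TEAD factor and cofactors Tead2, Vgll1, Vgll2 and Vgll3 at 0 of 4. With 27.1% of background genes carrying a peak, 0 of 4 is too few genes to set them apart. The upstream kinase gene Stk4 had a peak of 4.07-fold, and its paralogue Stk3 had none. Weak peaks over the start stood at the LATS activator Mob1a (2.62-fold), at Mob1b (3.18-fold) and at the scaffold gene Sav1 (2.74-fold). Of the 7 core genes with a peak, Wwc2 and Nf2 kept one at −log10 q of at least 5, a level that 14.4% of background genes reached. The other genes of the list without a peak were Wwc1, Taok1, Taok3, Amot, Ajuba and Wtip.

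Of 18 further YAP and TAZ target genes, 15 had at least 1 peak (83.3%, 58.6 to 96.4%) and 8 had a centre within 1000 bp of the TSS, against 27.1% and 17.1% of background genes. The strongest peaks were at Crim1 (6.20-fold, in an intron 75.3 kb downstream of the TSS), the kinase gene Nuak2 (6.18-fold, intergenic, 19.3 kb downstream) and Amotl2, which encodes an angiomotin that binds YAP (6.03-fold, in an intron, 9.37 kb downstream). Nt5e, the ecto-nucleotidase gene, followed with 5.96-fold in an intron 33.9 kb downstream. None of these 4 peaks lay within 1000 bp of a start. Amotl2 and Nt5e each had another peak there, of 5.47-fold 332 bp and of 4.14-fold 102 bp downstream. The nearest peaks of Crim1 and Nuak2 were farther away. Foxf2, Fjx1 and Igfbp3 had no peak. At −log10 q of at least 5, 10 of the 28 pathway genes and 8 of these 18 targets kept a peak, and 14.4% of background genes had one.

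**Figure D4:**
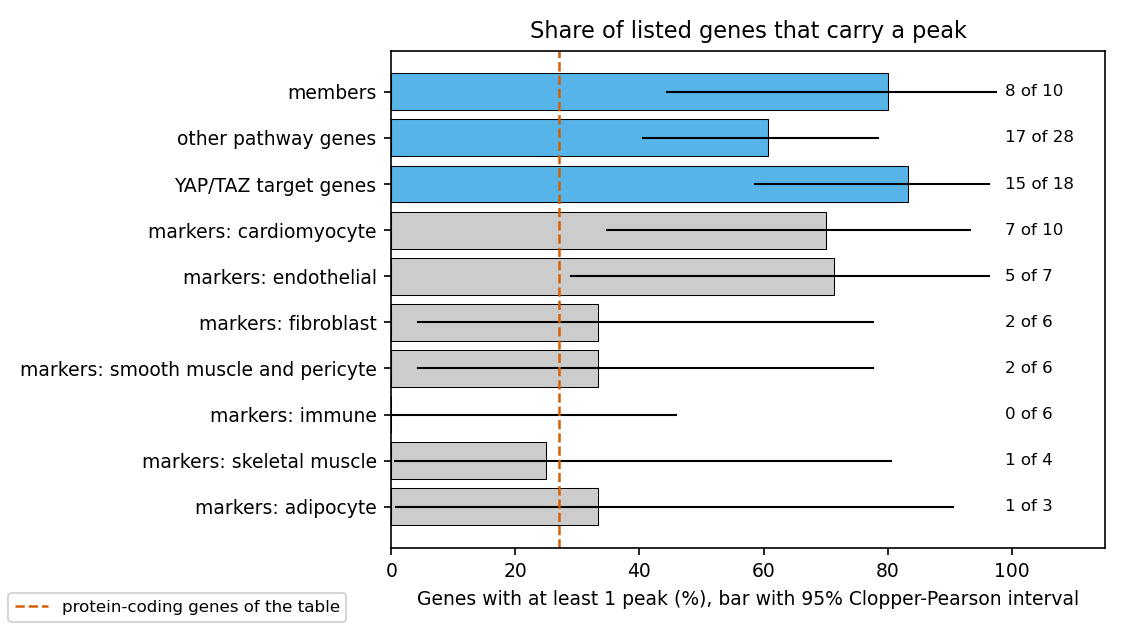
Share of listed genes with at least 1 peak (x axis, percent; lines are 95% Clopper-Pearson intervals, counts at the right) for the members, the other pathway genes, the further targets and the cell type marker lists; the dashed line is the 27.1% of background genes. The immune (0 of 6) and skeletal muscle (1 of 4) markers are the lists whose share is below that line, and the intervals of both take in the line.

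The labelled tissue was checked against marker genes of heart cell types. Peaks stood at 7 of 10 cardiomyocyte markers, with none at Myh6, Ryr2 or Ttn, and at 5 of 7 endothelial markers, with none at Pecam1 or Emcn. Fibroblast markers had 2 of 6, smooth muscle and pericyte markers 2 of 6, skeletal muscle markers 1 of 4, adipocyte markers 1 of 3 and immune markers 0 of 6. Among background genes 27.1% had a peak, so the fibroblast, smooth muscle, skeletal muscle and adipocyte lists were near that share, and these short lists say little about which of those cells were present. The tissue is a mixture, and peaks of Ccn1, Tead4 or any other member cannot be assigned to 1 of these cell types. Fewer cells of a type and less of the mark per cell cannot be told apart.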

How the data were processed

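Peaks were analysed from 1 ChIP library of myocardium of rats with abdominal aortic constriction. The tools named in the submitters' processing notes, with no role or order, are MACS2, HOMER, Bowtie2, Trim Galore, deepTools, FastQC and SAMtools, with the build rn6. Versions, and whether the input was the background of the call, are not given in the sources used here. Per the file headers, a path names a call at q 0.05 (the largest q was 0.0493), and the values deposited by the authors per peak are a fold enrichment (ratio), p and q as −log10 values, a score that truncates 10 times −log10 q to an integer, and HOMER's class, gene name and distance from peak centre to TSS. Peak names carry 1 sample name, so the call was taken as made on 1 library. These values were used only to describe and rank peaks within this list.

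The annotation and the peak list were joined by peak name. Peaks were counted by assigned gene name, with Ctgf and Cyr61 as older names of Ccn2 and Ccn1. A peak's reach relative to the TSS was taken from its centre distance and width. Coordinates are 1-based rn6 positions. Names (78.8% of 8094) were matched to a RefSeq table of GRCr8, which also gave the background genes, gene order and lengths. Promoter sequences are from RefSeq, GRCr8, and 7 of the 10 members had an entry. Tead1, Tead4 and Lats2 are named only.

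Members and gene lists were chosen with earlier results of these data known. All members are named, with every peak where there were 5 or fewer and otherwise the strongest, widest and nearest peaks and the range. Of the 2 pathway lists, the 4 genes with the strongest peak are named, and those without a peak by name. A few further genes, such as Stk4, Mob1a and Sav1, were singled out after their values were seen. Intervals cover counting error only. Counting was tested on simulated peaks. Python 3.11.15, pandas 2.3.3, numpy 2.4.6, scipy 1.17.1 and matplotlib 3.10.9 were used. Alternatives were stricter q and fold thresholds, a distance limit, joined peaks, counting by gene body and wider windows.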

Additional observations from a re-analysis of the deposited data

How the results depend on the processing

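No paired analysis was possible because only the ChIP library has values and 1 library gives no test. The number of members with any peak was 8 under each alternative except counting by the gene body a peak lies in (7, since the annotation placed no peak in a Tead4 transcript). Member peaks in all, 51 as deposited, were 21 at −log10 q of at least 5, 32 at fold enrichment of at least 4, 33 when neighbouring peaks of a gene were joined and 29 by gene body. At −log10 q of at least 5 the medians of member peaks were 5.0-fold, −log10 q 5.72 and 679 bp, and at fold enrichment of at least 4 they were 4.77-fold, 5.39 and 549.5 bp, since both thresholds remove weak peaks. The same thresholds moved the medians of all peaks to 5.20-fold and 4.73-fold. Joining peaks gave a median width of 744 bp at members, against 470 bp over all peaks joined in the same way. At −log10 q of at least 5, 10 other pathway genes and 8 further targets had a peak, as did 14.4% of background genes. A peak centre near the TSS was found at 6 members within 1 kb, 7 within 3 kb and 8 within 10 kb.

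Of the 28706 peaks, 98.1% shared their pair of fold enrichment and q with at least 1 other, and the list held 1838 distinct pairs. The Yap1 peak and the Tead4 peak 7.42 kb upstream had the same pair, as had the Lats1 peak and the Tead1 peak 30.6 kb upstream, so these cannot be ranked against each other. Sequencing depth is unknown, and its part in these ties was not tested.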

Other observations

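Of the 4 other genes of the CCN family, a list added after the values were seen, 2 had a peak (27.1% of background genes had one). Ccn6 had 1 intergenic peak of 4.91-fold enrichment 7.61 kb upstream of its TSS (chromosome 20, 44262492 to 44262852). Ccn5 had 1 of 3.97-fold 33.6 kb upstream (chromosome 3, 160174134 to 160174402). No peak carried the name Ccn3 or Ccn4. None of the 4 had a peak centre within 1000 bp of a start, where 17.1% of background genes had one.

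Ankrd1, which encodes a stress-induced cardiac ankyrin repeat protein and is often used as a readout of YAP activity, had a single peak of 3.43-fold enrichment and 200 bp, 1335 bp upstream of its start (chromosome 1, 254736784 to 254736983). It was chosen here after its values were seen.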
